A study of Mus musculus with 6 samples.

Results

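The classical MHC class I pathway of mouse melanoma cells is described here through 10 genes, chosen by name: the heavy chain genes H2-K1 and H2-D1, the light chain gene B2m, the peptide transporter genes Tap1 and Tap2, the loading factor gene Tapbp, the immunoproteasome subunit genes Psmb8, Psmb9 and Psmb10, and the regulator gene Nlrc5. All 10 were found among the 55335 gene rows of the count tables, by matching Ensembl identifiers to GENCODE release M21, and 9 of them were among the 13642 genes with enough counts for testing. Nlrc5 fell short of the count minimum. RNA of B16 melanoma cells was sequenced after poly(A) selection in 3 scrambled control cultures, labelled control 1, 2 and 3, and 3 IFNγR1KO cultures, labelled 10, 11 and 12. IFNγR1KO cells carry a CRISPR-Cas9 disruption of Ifngr1, the ligand-binding chain of the interferon-γ receptor. Scrambled control cells, labelled as wild type in genotype, carry the same lentiviral Cas9 vector with a guide against GFP, and both were selected with puromycin. Cells were grown overnight and lysed on the plate, with no interferon added by the methods of the study. Knockout lines were grown from single cells and screened by their PD-L1 response to IFN-γ, and the sources do not say whether the 3 IFNγR1KO cultures share 1 clone. The p-values below therefore measure the spread between cultures, and a difference between clones and an effect of the genotype cannot be told apart.

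MHC class I molecules display peptides from inside the cell to CD8+ T cells. Proteasomes cut proteins into peptides, the TAP transporter carries them into the endoplasmic reticulum, and a loading complex that includes tapasin places them on a heavy chain paired with β2-microglobulin. IFN-γ is known as a strong inducer of these genes through IRF1 and the coactivator NLRC5, and it exchanges 3 catalytic proteasome subunits for their immunoproteasome counterparts.

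In the IFNγR1KO cultures H2-K1 was 3.95-fold lower, Psmb8 was 6.31-fold lower and H2-D1 was 1.51-fold lower than in scrambled control cultures. These 3 of the 9 tested genes passed the test, an adjusted p under 0.05 in the quasi-likelihood test of edgeR. Over all tested genes, 7.62% passed it in the lower direction and 7.73% in the higher direction. H2-K1 and Psmb8 also changed by more than 1 on the log2 scale, as did 1.96% of all tested genes in the lower direction. B2m, Psmb9 and Psmb10 had lower means and did not pass, and Tap1, Tap2 and Tapbp lay near the control level. The median log2 fold change of the 9 genes was -0.40, beside -0.0015 for all tested genes.

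A total of 7 of the 10 genes, H2-K1, H2-D1, Tap1, Tap2, Tapbp, Psmb8 and Psmb9, lie on chromosome 17, in the region of the mouse MHC. B2m lies on chromosome 2, and Psmb10 and Nlrc5 lie on chromosome 8. Psmb9 and Tap1 run in opposite directions from a shared start region, and the annotation ends Tap1 495 bases before Psmb8 begins. The promoter sequences below, from RefSeq on GRCm38.p6, are shown because these genes are known to share interferon-responsive promoter elements while their RNA levels differed unequally here. Each runs from 250 bases before to 50 bases after the first listed transcription start, on the strand of the gene. RefSeq entries matched for 8 of the 10 genes, all but Tap2 and Nlrc5. Capitals mark matches on either strand to a κB-type element (GGG, any 2 bases, TT, any base, CC), to AGTTTC, a core of the interferon-stimulated response element, to a full element of that kind (GAAA, any 2 bases, GAAA), and to TTCNNNGAA, a gamma-activated site (GAS). The full element and the core can overlap.
H2-K1: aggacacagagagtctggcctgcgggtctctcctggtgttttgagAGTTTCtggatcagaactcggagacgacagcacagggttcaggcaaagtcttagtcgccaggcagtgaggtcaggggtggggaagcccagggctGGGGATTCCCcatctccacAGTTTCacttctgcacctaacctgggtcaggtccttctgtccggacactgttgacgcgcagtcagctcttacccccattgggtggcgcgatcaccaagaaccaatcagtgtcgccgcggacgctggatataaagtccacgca
H2-D1: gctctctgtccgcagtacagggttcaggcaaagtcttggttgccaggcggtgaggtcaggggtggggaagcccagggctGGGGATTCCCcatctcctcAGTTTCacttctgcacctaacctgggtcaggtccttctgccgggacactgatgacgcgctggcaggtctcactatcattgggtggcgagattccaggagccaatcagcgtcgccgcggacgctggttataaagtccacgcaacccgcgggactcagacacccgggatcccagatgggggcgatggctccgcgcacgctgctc
B2m: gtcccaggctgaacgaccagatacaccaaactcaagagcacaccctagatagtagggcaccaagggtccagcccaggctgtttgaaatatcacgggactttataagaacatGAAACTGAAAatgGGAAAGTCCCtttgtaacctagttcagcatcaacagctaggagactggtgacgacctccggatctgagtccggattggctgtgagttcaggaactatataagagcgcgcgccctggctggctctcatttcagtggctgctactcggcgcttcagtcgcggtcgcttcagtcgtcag
Psmb8: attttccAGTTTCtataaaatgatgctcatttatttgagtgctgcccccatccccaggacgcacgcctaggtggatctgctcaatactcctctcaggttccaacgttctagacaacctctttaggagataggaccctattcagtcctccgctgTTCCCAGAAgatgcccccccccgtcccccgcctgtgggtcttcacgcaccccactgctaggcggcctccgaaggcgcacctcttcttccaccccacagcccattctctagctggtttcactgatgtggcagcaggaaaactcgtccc
Tap1: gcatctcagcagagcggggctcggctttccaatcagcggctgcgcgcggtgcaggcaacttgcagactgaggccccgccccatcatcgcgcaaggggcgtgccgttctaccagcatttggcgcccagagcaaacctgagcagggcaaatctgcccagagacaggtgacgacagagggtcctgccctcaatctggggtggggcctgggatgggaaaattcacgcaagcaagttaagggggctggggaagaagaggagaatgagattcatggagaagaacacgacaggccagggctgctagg

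The H2-K1 window is chr17:34000298-34000597 on the minus strand, and the H2-D1 window is chr17:35262844-35263143 on the plus strand. In both, the κB match precedes an AGTTTC core with 9 bases between them. It starts at position -111 in H2-K1 and at -171 in H2-D1, counted from the first listed start of each gene. These positions depend on that listed start, and the H2-D1 window lies inside the annotated gene, which begins at 35262730. The B2m window is chr2:122147437-122147736 on the plus strand and holds a full GAAACTGAAA match from -139 to -130 beside a κB match. The Psmb8 window is chr17:34197945-34198244 on the plus strand and holds a TTCNNNGAA match from -97 to -89. This window lies inside the annotated gene, which begins at 34197721, and the bases before that position were not searched for Psmb8. The Tap1 window is chr17:34187306-34187605 on the plus strand, and 275 of its 300 bases are also in the window of Psmb9 on the other strand, with no match in capitals. Among the 8 windows the κB match was in 3, the AGTTTC core in 4, the full element in 1 and the GAS match in 1. Among all 27025 promoter windows these letters occurred in 4.71%, 16.04%, 3.49% and 8.47%, in the same order. Also searched, and not capitalised, were CCAAT, in 6 of the 8 windows and 37.9% of all, and TGACGC, in the H2-K1 and H2-D1 windows and 7.50% of all. A match describes letters in a window and not a bound site.

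The libraries held 9402640 to 10579788 counts on genes in scrambled control and 6698956 to 7409479 in IFNγR1KO. A single count was thus worth 0.0966 to 0.109 CPM in scrambled control and 0.135 to 0.142 CPM in IFNγR1KO, which limits what can be seen for Psmb8, Psmb9 and Nlrc5. Levels below are CPM, a gene's counts relative to the TMM-scaled total of its library, with means ± SD over 3 cultures. The 10 melanocyte marker genes were all counted, at 33048 to 35975 summed CPM in scrambled control and 28859 to 33748 in IFNγR1KO. Of these 10, Kit was called lower (log2 fold change -1.96, adjusted p = 4.8e-05 by edgeR), and 0 were called higher. Of 16 leukocyte markers, 10 were at 0 in every library and 12 at no more than 3 counts, with sums of 15.2 to 16.6 CPM in scrambled control and 12.1 to 15.2 CPM in IFNγR1KO. The 10 fibroblast and endothelial markers summed to 57.2 to 75.7 CPM in scrambled control and 129 to 133 CPM in IFNγR1KO, with 3 at 0 in every library and Col1a1 and Col1a2 called higher. Their part in the results below was not tested. In RNA of whole cultures, fewer cells that express a gene and less RNA per cell cannot be told apart. Ifngr1 itself had 16.7, 14.3 and 16.6 CPM in scrambled control and 11.4, 11.5 and 11.5 CPM in IFNγR1KO, with no overlap (log2 fold change -0.47, adjusted p = 0.0729 by edgeR). A guide-directed change in the coding sequence need not remove the RNA, so this level does not check the disruption.

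**Figure D1:**
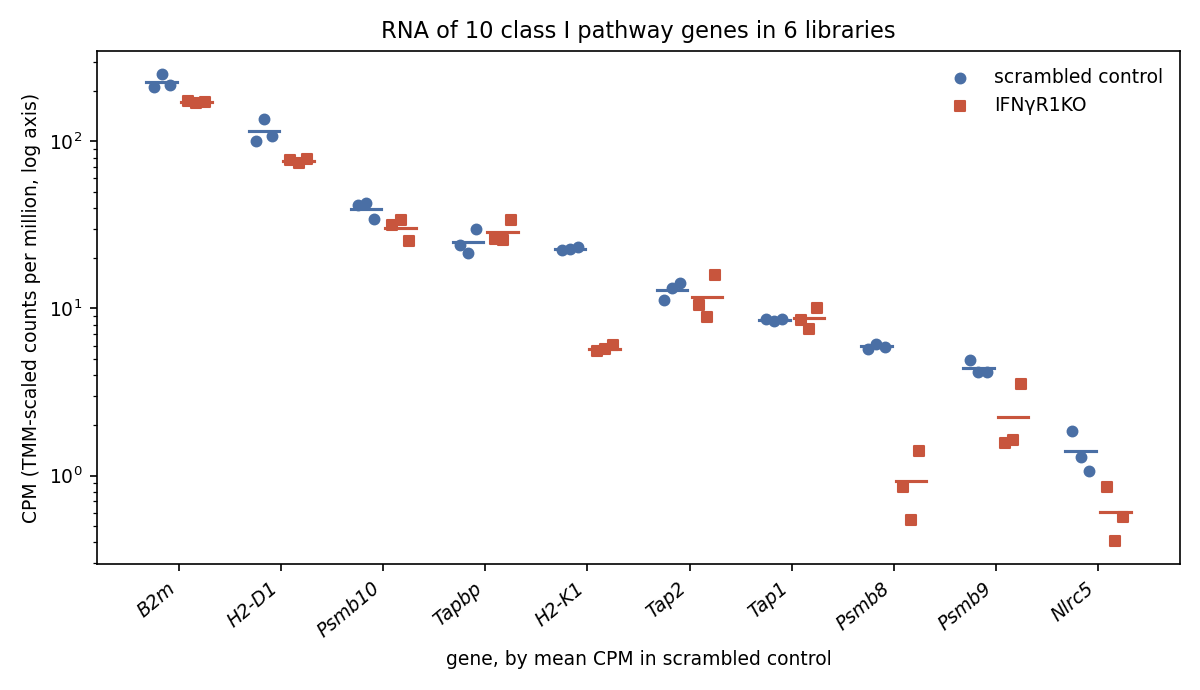
CPM of the 10 genes on a shared logarithmic axis, ordered by their mean in scrambled control, with 1 point per culture and a line at the group mean. H2-K1 and Psmb8 are well separated between scrambled control and IFNγR1KO, H2-D1, B2m, Psmb9, Psmb10 and Nlrc5 do not overlap, and Tap1, Tap2 and Tapbp overlap.

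H2-K1 (ENSMUSG00000061232, 17:33996017-34000347 in GRCm38) encodes the H-2K heavy chain, which presents peptides to CD8+ T cells. It had 22.4, 22.8 and 23.2 CPM in scrambled control 1, 2 and 3, and 5.54, 5.69 and 6.04 CPM in IFNγR1KO 10, 11 and 12, from 206 to 240 counts and 39 to 43 counts. All IFNγR1KO cultures were far below all scrambled control cultures, and the cultures within each group were close together. The means were 22.8 ± 0.415 CPM and 5.76 ± 0.259 CPM (SD, n = 3). This was a log2 fold change of -1.98 (SE 0.17, 95% interval -2.35 to -1.61, adjusted p = 1.5e-05 by edgeR).

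H2-D1 (ENSMUSG00000073411, 17:35262730-35267499) encodes the H-2D heavy chain. It had 101, 137 and 108 CPM in scrambled control and 77.3, 74.2 and 78.0 CPM in IFNγR1KO. The groups did not overlap, and scrambled control 2 stood above the other libraries. The means were 115 ± 18.8 and 76.5 ± 2.01 CPM (SD, n = 3), with a log2 fold change of -0.59 (SE 0.14, adjusted p = 0.0164 by edgeR). This call was lost without scrambled control 2 (log2 fold change -0.45, adjusted p = 0.0741), without IFNγR1KO 10 (adjusted p = 0.0592) and without IFNγR1KO 11 (adjusted p = 0.0956).

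The heavy chains thus differed unequally. H2-K1 counts per kilobase were 19.4%, 14.6% and 18.8% of those of H2-D1 in scrambled control and 6.29%, 6.73% and 6.80% in IFNγR1KO. The mean log2 ratio was lower by 1.404 in IFNγR1KO, without overlap, and the exact permutation test (two-sided) gave p = 0.1, the smallest it can give for 3 against 3. This ratio was added after the values of both genes had been seen. Class I heavy chain genes are near copies of each other: the longest H2-K1 and H2-D1 transcripts were identical at 90.5% of 1585 aligned bases. No 100-base window of H2-K1 was shared with another gene, while 4.64% of those of H2-D1 were, with H2-Q1, Gm7030 and H2-T23, so reads could be lost or misplaced for H2-D1. Counts summed over H2-K1, H2-D1 and the 5 other tested H2 heavy chain genes, H2-T23, H2-T22, H2-Q4, H2-M3 and H2-K2, were 1953, 2605 and 2246 in scrambled control and 1077, 1050 and 1029 in IFNγR1KO. Reads placed on H2-Q1 or Gm7030, and the 3.76% to 4.61% of reads with no unique place, are not in this sum, which was 1.56-fold lower (log2 fold change -0.65, adjusted p = 0.0076 by edgeR).

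B2m (ENSMUSG00000060802, 2:122147686-122153083) encodes β2-microglobulin, without which heavy chains do not reach the surface stably. It had 211, 253 and 217 CPM in scrambled control and 176, 169 and 172 CPM in IFNγR1KO. Every IFNγR1KO culture was below every scrambled control culture. The means were 227 ± 22.8 and 172 ± 3.50 CPM (SD, n = 3). Its log2 fold change of -0.40 (95% interval -0.69 to -0.11) had an adjusted p of 0.0628 by edgeR and 0.0251 by DESeq2.

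Of 28 other class I heavy chain genes and related genes listed, 24 were in the tables, 11 were at 0 in every library and 8 were tested, with a median of -0.19 in log2 fold change. H2-T23 and H2-T22 were lower by the test, beside 15.3% of all tested genes called in either direction. H2-T23, which encodes Qa-1, a ligand of NKG2A receptors, had 10.8, 13.2 and 7.73 CPM in scrambled control and 4.40, 3.39 and 4.08 CPM in IFNγR1KO (log2 fold change -1.42, adjusted p = 0.0027 by edgeR). H2-T22, which encodes a ligand of γδ T cells, had 42.9, 46.6 and 41.5 CPM against 33.1, 30.7 and 28.3 CPM (log2 fold change -0.51, adjusted p = 0.0261). Both were without overlap between groups. The H2-T22 call was lost without scrambled control 1 (adjusted p = 0.055) or 2 (adjusted p = 0.0923) and without IFNγR1KO 10 (adjusted p = 0.0608) or 11 (adjusted p = 0.116). The remaining tested genes were H2-Q4, H2-M3, H2-K2, Mr1, Hfe and Fcgrt.

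**Figure D2:**
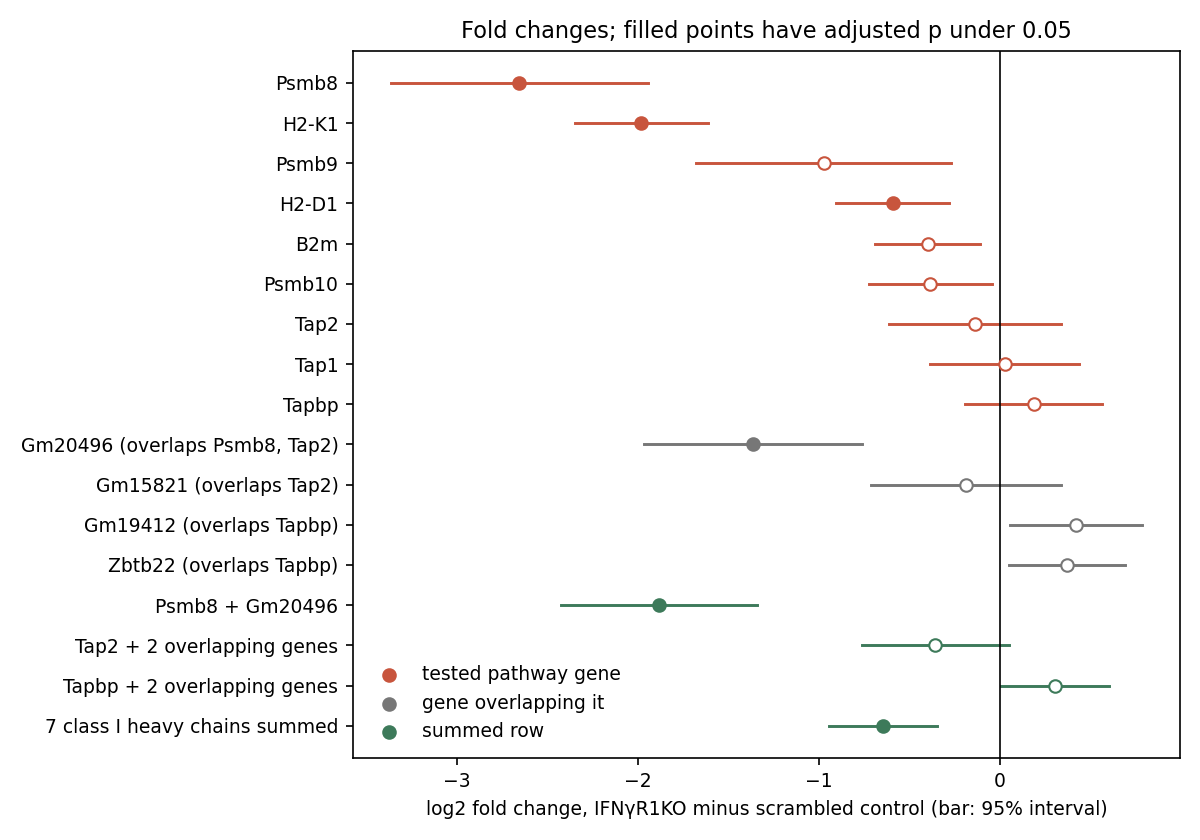
Log2 fold change, IFNγR1KO minus scrambled control, of the 9 tested pathway genes (red), of genes overlapping them (grey) and of summed counts (green), with 95% intervals from edgeR and filled points for an adjusted p under 0.05. H2-K1 at -1.98 and Psmb8 at -2.66 lie far below 0, and the intervals of Tap1, Tap2 and Tapbp include 0.

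TAP1 and TAP2 form the peptide transporter of the endoplasmic reticulum membrane. Tap1 (ENSMUSG00000037321, 17:34187553-34197225) had 8.68, 8.46 and 8.60 CPM in scrambled control and 8.52, 7.59 and 10.12 CPM in IFNγR1KO. The IFNγR1KO values spanned the control values on both sides. The log2 fold change was 0.03 (95% interval -0.39 to 0.44, adjusted p = 0.950 by edgeR), so the interval did not include a change of the size of H2-K1 or Psmb8.

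Tap2 (ENSMUSG00000024339, 17:34203527-34216321) had 11.3, 13.3 and 14.2 CPM in scrambled control and 10.5, 8.94 and 15.9 CPM in IFNγR1KO. The groups overlapped, with IFNγR1KO 12 the highest of all libraries. The log2 fold change was -0.14 (95% interval -0.61 to 0.34, adjusted p = 0.734 by edgeR). Exons of the antisense genes Gm20496 and Gm15821 cover 18.5% of the exonic bases of Tap2. Gm15821 had a log2 fold change of -0.19 (adjusted p = 0.668). With both added to Tap2, the log2 fold change was -0.36 (adjusted p = 0.232).

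Tapbp (ENSMUSG00000024308, 17:33915899-33929292) encodes tapasin, which bridges TAP and the heavy chain during loading. It had 23.99, 21.4 and 29.96 CPM in scrambled control and 26.0, 25.7 and 34.0 CPM in IFNγR1KO. The ranges overlapped, and the highest culture of each group was control 3 and IFNγR1KO 12. Tapbp had a log2 fold change of 0.19 (95% interval -0.19 to 0.57, adjusted p = 0.539 by edgeR). The antisense gene Gm19412 and the neighbour Zbtb22 overlap 29.0% of its exonic bases, with log2 fold changes of 0.42 (adjusted p = 0.115) and 0.37 (adjusted p = 0.118), and the summed counts gave 0.31 (adjusted p = 0.164).

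All 20 listed partners of peptide loading and trimming were tested, with a median log2 fold change of -0.09. Hspa5 and Pdia4, both higher, passed, which is 10.0% of the list beside 15.3% of all tested genes. Hspa5, the general chaperone BiP of the endoplasmic reticulum, had 2878, 2532 and 2294 CPM in scrambled control and 6186, 4759 and 3844 CPM in IFNγR1KO (log2 fold change 0.94, adjusted p = 0.0081 by edgeR). Pdia4, a disulfide isomerase, had 550, 542 and 551 CPM against 1009, 750 and 774 CPM (log2 fold change 0.63, adjusted p = 0.019). Without scrambled control 2 neither passed, with adjusted p = 0.051 for Hspa5 and 0.0754 for Pdia4, and Pdia4 did not pass without scrambled control 1 (adjusted p = 0.0506) or IFNγR1KO 10 (adjusted p = 0.121). Neither is dedicated to class I molecules, since both act on secreted and membrane proteins at large.

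PSMB8, PSMB9 and PSMB10 are the catalytic subunits that replace PSMB5, PSMB6 and PSMB7 in the immunoproteasome. Psmb8 (ENSMUSG00000024338, 17:34197721-34201454) had 53, 62 and 61 counts in scrambled control and 6, 4 and 10 counts in IFNγR1KO, which are 5.75, 6.17 and 5.89 CPM and 0.852, 0.542 and 1.41 CPM. The groups were widely apart, with few counts in each IFNγR1KO library. The means were 5.94 ± 0.211 and 0.933 ± 0.438 CPM (SD, n = 3). Psmb8 had a log2 fold change of -2.66 (SE 0.33, 95% interval -3.37 to -1.95, adjusted p = 0.00029 by edgeR).

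Gm20496, an antisense long noncoding gene (17:34199316-34205449), runs opposite to Psmb8 and Tap2. Exons of these genes cover its whole 663 exonic bases, 498 under Psmb8 and 165 under Tap2, and the Psmb8 overlap is 14.7% of the 3381 exonic bases of Psmb8. Gm20496 had 56, 55 and 60 counts in scrambled control and 14, 12 and 22 counts in IFNγR1KO. Its groups were widely apart as well, with IFNγR1KO 12 the highest of the IFNγR1KO libraries for both genes. The log2 fold change was -1.37 (SE 0.28, adjusted p = 0.0061 by edgeR), a 2.58-fold lower level.

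Whether reads were counted by strand is not given in the sources used here. Counting without strand in the usual mode of HTSeq sets reads on bases of both genes aside as ambiguous, and Gm20496 has no exonic bases of its own in this annotation, yet it held 55 to 60 counts in scrambled control. Reads on no feature were 46.9% to 47.7% of each library, beside 46.0% to 47.0% on genes and 1.57% to 1.85% ambiguous. Whether the Gm20496 row holds reads of Psmb8 or Tap2 transcripts was not tested. In scrambled control, counts per kilobase of exon were 83.0 to 90.5 for Gm20496 and 15.7 to 18.3 for Psmb8. The ratio of Gm20496 to Psmb8 counts was 1.06, 0.887 and 0.984 in scrambled control and 2.33, 3 and 2.2 in IFNγR1KO. The ratio was higher in every IFNγR1KO library (exact permutation test on log2 ratios, two-sided p = 0.1, the smallest possible), so the antisense row had not fallen in proportion to Psmb8. This ratio was not among the planned tests, and in IFNγR1KO it rests on 4 to 10 counts of Psmb8. Added together, both genes had 109, 117 and 121 counts in scrambled control and 20, 16 and 32 counts in IFNγR1KO. The sum was 3.69-fold lower (log2 fold change -1.89, 95% interval -2.43 to -1.34, adjusted p = 0.00047 by edgeR). The decrease at this locus was thus called whether the antisense counts were kept apart or added, and its size was -2.66 or -1.89 on the log2 scale.

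**Figure D3:**
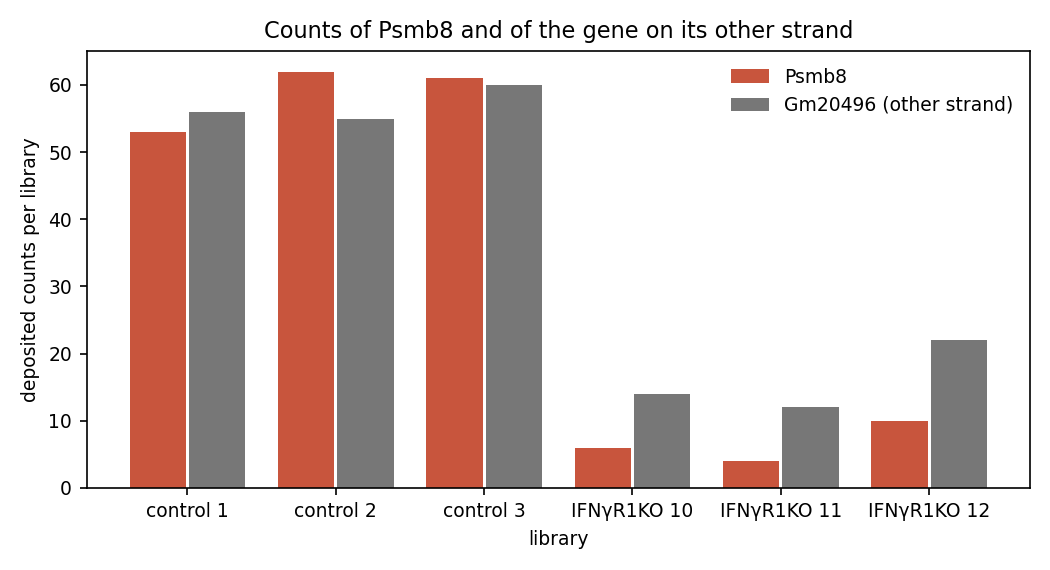
Deposited counts of Psmb8 and of the antisense gene Gm20496 as bars, for each of the 6 libraries. Both genes are lower in every IFNγR1KO library than in every scrambled control library, and in IFNγR1KO the Gm20496 bar is the taller of the pair.

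Psmb9 (ENSMUSG00000096727, 17:34181987-34187764) had 45, 42 and 43 counts in scrambled control and 11, 12 and 25 counts in IFNγR1KO, or 4.89, 4.18 and 4.16 CPM against 1.56, 1.63 and 3.51 CPM. All IFNγR1KO values were below all control values, and IFNγR1KO 12 lay closer to the controls than to the other IFNγR1KO libraries. The log2 fold change was -0.98 (SE 0.33, 95% interval -1.68 to -0.27, adjusted p = 0.0617 by edgeR). Without IFNγR1KO 12 it was -1.46 (adjusted p = 0.0051). Psmb9 and Tap1 share 212 exonic bases on opposite strands. IFNγR1KO 12 was the highest IFNγR1KO library for all 7 genes on chromosome 17, by little for H2-K1 and H2-D1. How often this held over all tested genes was not counted.

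Psmb10 (ENSMUSG00000031897, 8:105935735-105938444) had 41.5, 42.7 and 34.5 CPM in scrambled control and 31.7, 33.9 and 25.3 CPM in IFNγR1KO. No IFNγR1KO value reached the lowest control, and control 3 and IFNγR1KO 12 were the lowest of their groups. Psmb10 had a log2 fold change of -0.38 (95% interval -0.72 to -0.04, adjusted p = 0.124 by edgeR).

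The ratio of each immunoproteasome subunit to its constitutive counterpart was compared in counts per kilobase of exon. Psmb8 was at 1.12%, 1.14% and 1.61% of Psmb5 in scrambled control and at 0.147%, 0.0953% and 0.314% in IFNγR1KO. The mean log2 ratio was lower by 2.96 without overlap (exact permutation test, two-sided p = 0.1, 0.3 when adjusted over the 3 ratios). The Psmb9 to Psmb6 ratio differed by -1.05 (p = 0.3, adjusted 0.45, exact permutation test) with overlap, and the Psmb10 to Psmb7 ratio by -0.06 (p = 0.5, adjusted 0.5, exact permutation test). With 3 cultures a group these tests cannot go below 0.1. Psmb5 had a log2 fold change of 0.17 (adjusted p = 0.571), Psmb6 of -0.02 (adjusted p = 0.963) and Psmb7 of -0.33 (adjusted p = 0.148), all by edgeR.

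**Figure D4:**
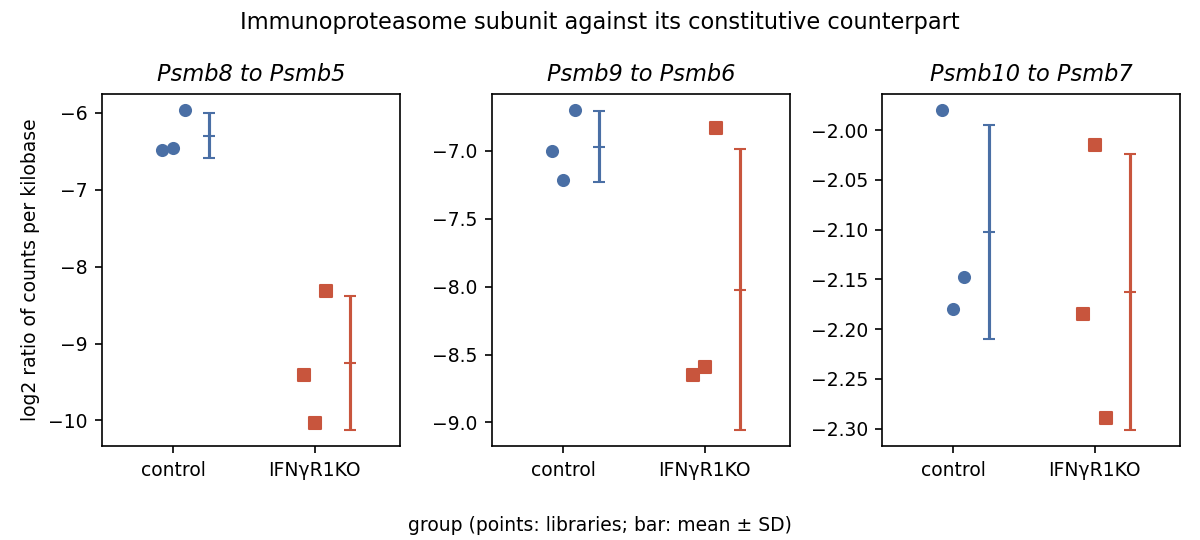
Log2 ratio of each immunoproteasome subunit to its constitutive counterpart, in counts per kilobase, with 1 point per culture and a bar for mean ± SD, on vertical axes that differ between panels. The Psmb8 to Psmb5 ratio is apart between groups, and the other ratios overlap.

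Of 26 listed genes of the constitutive proteasome and its activators, 24 were tested and 0 passed in edgeR, beside 15.3% of all tested genes. At an unadjusted p under 0.05 by edgeR there were 3 of the 24, beside 3948 of all 13642 tested genes. DESeq2 called 0 of the list. The median log2 fold change was -0.15. Control 3 was the lowest scrambled control library for 20 of the 24 genes, and IFNγR1KO 12 was the lowest IFNγR1KO library for 20 of them. The same count over all tested genes was not made.

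Nlrc5 (ENSMUSG00000074151, 8:94434356-94527272) encodes the coactivator that binds class I promoters. It had 17, 13 and 11 counts in scrambled control and 6, 3 and 4 counts in IFNγR1KO, or 1.85, 1.29 and 1.06 CPM against 0.852, 0.406 and 0.562 CPM. The ranges did not overlap, at few counts in every library. Tested with no filter on low counts, the log2 fold change was -1.21 (adjusted p = 0.156 by edgeR), and at this depth the difference did not pass. With Nlrc5 counted, 7 of the 10 genes had every IFNγR1KO culture below every scrambled control culture, and 6 of the 9 tested ones did, beside 16.6% of all tested genes.

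Of 28 listed transcriptional regulators of class I genes, 25 were tested, with a median log2 fold change of -0.04. A total of 3 were higher and 1 was lower, 4 of 25, which is near the 15.3% called among all tested genes and so no result about the list. Irf1, the transcription factor that acts on interferon-stimulated response elements, had 27.7, 28.5 and 27.9 CPM in scrambled control and 16.5, 18.7 and 20.8 CPM in IFNγR1KO (log2 fold change -0.59, adjusted p = 0.0203 by edgeR). This call was lost without scrambled control 2 (adjusted p = 0.0667), IFNγR1KO 10 (adjusted p = 0.109) or IFNγR1KO 11 (adjusted p = 0.094). Rfx5, a subunit of the RFX complex at class I and class II promoters, had 5.86, 5.57 and 8.02 CPM against 17.5, 14.6 and 15.7 CPM (log2 fold change 1.29, adjusted p = 0.0012). The NF-κB genes Relb and Nfkb2, of the noncanonical branch, were higher too.

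Relb had 9.44, 12.8 and 12.0 CPM in scrambled control and 25.1, 27.6 and 34.3 CPM in IFNγR1KO (log2 fold change 1.34, adjusted p = 0.00052 by edgeR). Nfkb2 had 29.7, 39.1 and 45.0 CPM against 56.4, 54.6 and 70.8 CPM (log2 fold change 0.67, adjusted p = 0.0203), a call lost without scrambled control 1 (adjusted p = 0.0706) or 2 (adjusted p = 0.0786). The Irf1, Rfx5, Relb and Nfkb2 values did not overlap between groups.

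Of 11 interferon receptor and kinase pathway genes listed, 10 were tested, their median change was -0.02 on the log2 scale, and 1 passed, below the 15.3% of all tested genes. Socs3, a feedback inhibitor of cytokine receptors, had 11.7, 13.9 and 14.5 CPM in scrambled control and 7.53, 6.64 and 8.44 CPM in IFNγR1KO (log2 fold change -0.83, adjusted p = 0.011 by edgeR). Its groups did not overlap, and the call was lost without IFNγR1KO 11 (adjusted p = 0.0728).

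To see whether the lower genes shared their values with neighbours on the chromosome, the tested genes between Tapbp and H2-D1 (17:33915899-35267499) were compared. Of 152 gene rows, 69 were tested, 7 of them pathway genes, and 13 were called. Without the pathway genes, 62 were tested, 5 were higher and 5 lower, and the median log2 fold change was 0.12. The 10 calls, higher and lower, were 16.1% of the 62, near the 15.3% of all tested genes, so the neighbours were called about as often as any genes. The 5 lower ones were H2-Aa (log2 fold change -4.03), H2-Ab1 (-2.70), C4b (-1.92), Gm20496 (-1.37) and Lsm2 (-0.58). All but Lsm2 were lower by more than 1, as were 1.96% of all tested genes by the same rule. Gm20496 is no separate neighbour, since its exons lie under those of Psmb8 and Tap2. H2-Aa, which encodes an MHC class II chain, had 25, 24 and 25 counts in scrambled control and 1, 0 and 2 counts in IFNγR1KO (adjusted p = 0.0007 by edgeR). C4b, a complement gene with a near copy, C4a, beside it, had 5.32, 6.17 and 6.57 CPM against 1.56, 1.22 and 1.97 CPM (log2 fold change -1.92, adjusted p = 0.00085). Ly6g5c (log2 fold change 1.27, adjusted p = 0.0048) and Rxrb, which encodes a retinoid receptor (log2 fold change 0.57, adjusted p = 0.0091), were higher, and the Rxrb call was lost without IFNγR1KO 11 (adjusted p = 0.0561).

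**Figure D5:**
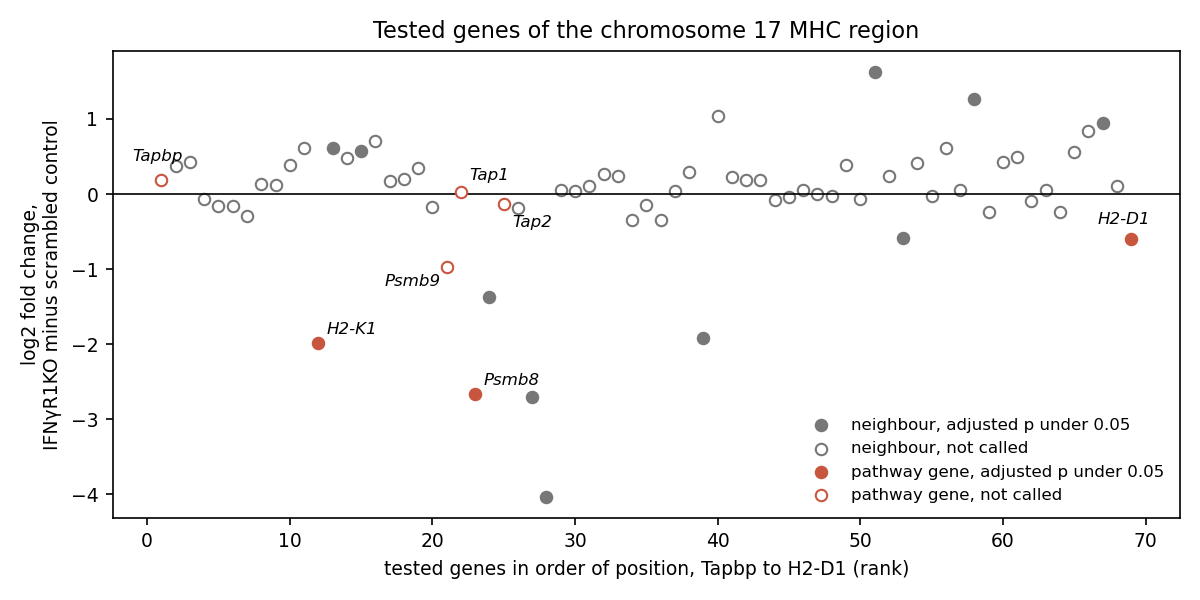
Log2 fold change of the 69 tested genes from Tapbp to H2-D1, in order of position and not to distance. Pathway genes are in red, filled symbols passed the test, the lowest point is H2-Aa, whose fitted value depends on 3 or fewer counts per IFNγR1KO library, and called genes of both directions lie in the region.

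Levels in scrambled control were ordered by CPM per kilobase of exon, the length being that of all annotated exons of a gene together. It can exceed 1 transcript: Psmb9 has 3660 exonic bases and a longest coding transcript of 1352, and B2m has 860 of both. The order and overlaps below, and the percentages per kilobase above, depend on this choice of length. B2m was at 264, H2-D1 at 44.7, Psmb10 at 23.2, H2-K1 at 7.75, Tapbp at 6.92 and Tap2 at 3.42 CPM per kilobase. Psmb8 was at 1.76, Tap1 at 1.57, Psmb9 at 1.204 and Nlrc5 at 0.165 CPM per kilobase. Neighbours in this order did not overlap over the 3 cultures except H2-K1 and Tapbp, which ranged from 7.61 to 7.89 and from 5.90 to 8.26 CPM per kilobase. Over exonic bases shared with no other gene, Tapbp was at 9.75 and exceeded H2-K1. In IFNγR1KO, by the same lengths, H2-K1 was at 1.96, below Tap2 at 3.12 CPM per kilobase, and Psmb8 was at 0.276, below Psmb9 at 0.61. H2-K1 has 2938 exonic bases and a longest coding transcript of 1619, and Tap2 has 3781 and 3442. Their order in IFNγR1KO thus rests on the length used. B2m, and after it H2-D1 at 29.7 CPM per kilobase, were still the highest.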

How the data were processed

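RNA of 3 scrambled control and 3 IFNγR1KO cultures of B16 cells was measured. Paired-end reads had been mapped by the authors with STAR 2.7.5a (GRCm38), and the deposited values are raw, unnormalized counts of HTSeq 0.11.2, with 1 table per library. The submitters' processing notes also name DESeq2 1.34.0. The strand setting and annotation release of the counting are not given in the sources used here. Of the reads in the tables, 46.0% to 47.0% were on genes, 46.9% to 47.7% on no feature and 1.57% to 1.85% ambiguous between genes, and only the first were used.

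Groups came from the sample labels. Counts were analysed in R 4.3.3 with edgeR 4.0.16: filterByExpr with minimum count 10 and minimum total 15, TMM scaling and the quasi-likelihood test over all 13642 genes kept, with Benjamini-Hochberg adjustment. The biological coefficient of variation was 0.148. Single ratios were compared by exact permutation tests. Symbols and positions came from GENCODE M21, which holds 55154 of the 55335 identifiers, and promoters from RefSeq on GRCm38.p6. Gene positions are those of GRCm38. A gene at 3 counts or fewer throughout a group was given by its counts.

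The genes and lists were chosen with earlier results of these data known. Named were the 10 genes, genes overlapping their exons, Psmb5, Psmb6, Psmb7, Ifngr1 and Irf1, up to 5 called genes per list and direction, and up to 5 called genes of the MHC region that are not pathway genes. A further gene that this rule names is not reported here. H2-Q4, H2-M3, H2-K2, Mr1, Hfe and Fcgrt were named to complete a list, after their values were seen. So were Kit, Col1a1 and Col1a2, as called markers, and C4a, as a near copy of C4b. H2-Ab1 and Lsm2 were likewise named after their values were seen, to complete the lower genes of the MHC region. Counts of these libraries were simulated for this comparison, with 13457 genes tested. The test recovered 45 of 50 genes raised by 1 and 46 of 50 lowered by 1.5 on the log2 scale. It recovered 50 of 50 raised by 2 and 50 of 50 lowered by 3, with 12 false calls. Each size was simulated in 1 direction only, so recovery of decreases by 1 or 2 is not given. Genes with low mean counts were not among those changed, and the simulated spread followed the fitted trend over all genes. Changes below 1 were not simulated, so recovery of smaller changes or at few counts is not given. The alternatives were DESeq2 1.42.0 with the Wald test, RLE scaling, no filter, a filter at 1 CPM in 3 libraries, thinning of every library to the smallest total, summed overlapping genes (for Tap2 and Tapbp chosen after seeing the data), unshared exonic length, and leaving out each library. Other data of the study were not analysed here.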

Additional observations from a re-analysis of the deposited data

How the results depend on the processing

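H2-K1, Psmb8 and Gm20496 were called lower under all 11 alternatives: DESeq2, RLE scaling, no filter, the 1 CPM filter, thinning and the omission of each of 6 libraries. H2-D1 was called in 8 of 11, and its log2 fold change ranged from -0.68 to -0.45 when 1 library was left out. B2m passed with DESeq2 (-0.41, adjusted p = 0.0251), and Psmb9 passed with no filter (-1.004, adjusted p = 0.0157) and without IFNγR1KO 12. Changes of sign occurred only in values near 0: Tap1 was -0.0035 with no filter and ranged from -0.095 (without IFNγR1KO 12) to 0.13 with 1 library left out, Tap2 ranged from -0.42 to 0.043 (without IFNγR1KO 11), and the Psmb10 to Psmb7 ratio from -0.13 to 0.0023. With 1 library left out, pathway genes called lower numbered 2 to 4, other heavy chains 1 to 2, loading partners 0 to 2, regulators 2 to 4, interferon receptor pathway genes 0 to 1, and constitutive proteasome genes 0 to 2, with 1 under no filter. Thinning called 3 other heavy chains. In the MHC region 8 genes were called without IFNγR1KO 11 and 20 without IFNγR1KO 12, against 13. The share of all tested genes called with 1 library left out is not given here. These counts therefore cannot be read as changes particular to a list or to the region. The cause of the changes in count was not tested. Psmb8 over unshared exonic length was at 2.06, Tap1 at 1.63 and Tap2 at 4.20 CPM per kilobase in scrambled control. No paired analysis was possible because the groups share no replicate number, with 1 to 3 in scrambled control and 10 to 12 in IFNγR1KO. Depth limits Psmb8, Psmb9 and Nlrc5, and with 3 cultures a group no library could be tested as an outlier.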
